A study of Drosophila melanogaster with 2 samples.

Results

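The Cpr genes of Drosophila melanogaster were examined for regions recovered with the transcription factor Giant. Members were the protein-coding genes whose Ensembl symbol consists of Cpr and a cytological band, and 70 of the 13945 protein-coding genes on the main chromosome arms met this rule. The rule uses the name and no measured value. Of the 70 genes, 5 lie on arm 2L, 21 on 2R, 35 on 3L, 5 on 3R and 4 on X. Grouping genes at most 20000 bp apart placed 49 of them in 12 genomic clusters and left 21 alone.

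The measurements come from chromatin immunoprecipitation with sequencing (ChIP-seq) in whole embryos, 0 to 18 h old, of a transgenic strain that makes Giant fused to enhanced green fluorescent protein (gt-eGFP). An antibody to GFP was used on chromatin sonicated to 200 to 800 bp. The series has 1 group of 2 biological replicates, both with the fusion, and no untagged or untreated group, so no conditions could be compared and no test was made. Whole embryos of this broad age window mix tissues and stages, and the lists do not tell which cells gave a region.

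Cpr proteins are structural proteins of the insect cuticle. They carry the Rebers-Riddiford domain, which binds chitin, and are secreted by the epidermis and other cuticle-forming epithelia, with different genes used in larval and adult cuticles; many arose by tandem duplication. Giant is a basic leucine zipper protein that acts in the early embryo as a gap-gene repressor, and its palindromic site can be written TTACGTAA.

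A region was given to the gene whose transcription start site (TSS) was nearest to its summit, at most 10000 bp away. The deposited thresholded lists hold regions with an irreproducible discovery rate (IDR, which measures how poorly a region's rank repeats between peak sets) of at most 0.01, a −log10 IDR of at least 2. The ranked lists hold all regions compared, most of them weak. On the main arms, the pooled lists made over both replicates held 1825 thresholded peaks and 145186 ranked regions. Replicate 1 held 1163 and 104826, and replicate 2 held 1100 and 127147. Signal is the value the authors' peak caller gave each region, on a scale not given in the sources used here, so it is compared as such only within a list.

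Cpr76Ba stood apart from the rest of the family: it was the 1 member with a thresholded peak in the pooled list, the conservative list and both replicates; 602 of the 13945 genes had one in both replicates. Cpr49Ah was the other member with a pooled peak. The remaining 68 genes had none, although most had weaker ranked regions. The sequence at the Cpr76Ba summit is shown because it is the one region of the family past the threshold in both replicates. Also shown, for contrast in base composition, are 3 GC-rich coding-sequence regions of genes below the threshold. All are on the plus strand of Release 6 (dm6), from the RefSeq copy of the genome, with CAGTG on either strand in capitals (CACTG is its reverse complement). Windows are chr3L:19516592-19516891 for Cpr76Ba, chr2L:9543116-9543316 for Cpr30B, chr3L:19526068-19526268 for Cpr76Bc and chr3L:1840924-1841124 for Cpr62Bc.
Cpr76Ba summit: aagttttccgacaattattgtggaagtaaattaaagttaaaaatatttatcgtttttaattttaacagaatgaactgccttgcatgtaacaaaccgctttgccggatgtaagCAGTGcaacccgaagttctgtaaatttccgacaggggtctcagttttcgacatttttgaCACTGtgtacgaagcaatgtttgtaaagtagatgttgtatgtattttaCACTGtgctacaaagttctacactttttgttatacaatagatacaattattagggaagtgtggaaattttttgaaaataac
Cpr30B summit: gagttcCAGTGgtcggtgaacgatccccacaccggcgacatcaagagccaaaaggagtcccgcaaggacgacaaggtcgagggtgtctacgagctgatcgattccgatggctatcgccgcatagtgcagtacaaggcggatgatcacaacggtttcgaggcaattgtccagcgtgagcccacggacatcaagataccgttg
Cpr76Bc summit: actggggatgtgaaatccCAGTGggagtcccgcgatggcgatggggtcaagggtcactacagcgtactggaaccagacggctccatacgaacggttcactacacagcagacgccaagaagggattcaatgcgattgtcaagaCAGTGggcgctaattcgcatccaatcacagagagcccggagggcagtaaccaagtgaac
Cpr62Bc summit: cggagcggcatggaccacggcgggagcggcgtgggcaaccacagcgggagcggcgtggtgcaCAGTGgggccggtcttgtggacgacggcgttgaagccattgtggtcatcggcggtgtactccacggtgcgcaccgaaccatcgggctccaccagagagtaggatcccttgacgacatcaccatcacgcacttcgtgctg
The Cpr76Ba window, printed at 300 bases, was 32.7% GC (37.8% in the central 201 bases) and held 3 CAGTG sites. The 201-base windows of Cpr30B, Cpr76Bc and Cpr62Bc, all centred in the genes' own coding sequence, were 56.2%, 55.2% and 65.7% GC with 1, 2 and 1 CAGTG sites. None of these windows held TTACGTAA, even with 1 mismatch. The 3 contrast windows do not stand for all regions below the threshold. Over 61 members the strongest regions had a median of 50.7% GC. In 201-base windows CAGTG was in 6 of the 15 strongest (40%), in 35% of all ranked regions and in 50.7% of thresholded peaks.

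In the pooled thresholded list 2 of 70 members had an assigned peak (2.86%, 95% Wilson interval 0.787 to 9.83), and 9.17% of all genes did. In the conservative list it was 1 member (1.43%), against 8.07% of genes. Replicate 1 gave 1 member against 6.59% of genes, and replicate 2 gave 1 member against 5.94%. The members' share was thus below that of all genes in each list. The interval held the share of all genes for the pooled list but not for the conservative list (0.253 to 7.66, against 8.07%). For either replicate it was also 0.253 to 7.66 and held the share. Such intervals treat genes as independent, which neighbouring genes are not.

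Members also have less sequence to which a peak could be assigned. The stretch of sequence nearest to a gene's TSS, called its territory here, had a median of 3363.8 bp for members and 4246.5 bp for all genes. Their gene bodies had a median length of 1093.5 bp, against 2166 bp. Per length there were 5.88 pooled peaks per Mb of the members' 340.4 kb of territory and 17.3 per Mb of the 93.9 Mb of all genes. The members' value rests on 2 peaks and has a wide counting error, and the part of territory in their share was not tested.

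Ranked regions were as frequent at Cpr genes as elsewhere. The pooled ranked list gave a region to 61 of 70 members (87.1%, against 89% of genes), replicate 1 to 66 (94.3%, against 88.4%) and replicate 2 to 62 (88.6%, against 88.3%). Members had a median of 4 pooled regions each, and all genes 5. Per 10 kb of territory there were 13 regions for members and 11.4 for all genes.

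The strength of these regions was also close to that of all genes. The highest pooled signal per gene had a median of 38.1 over the 61 members with a region (interquartile range 30.2 to 44.7), against 38.6 (30.1 to 48.6) over 12411 genes. In replicate 1 the medians were 17.6 and 17.7, and in replicate 2 they were 25.5 and 25.3. Of the members, 27 were above the median of all genes and 13 above their upper quartile.

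**Figure D1:**
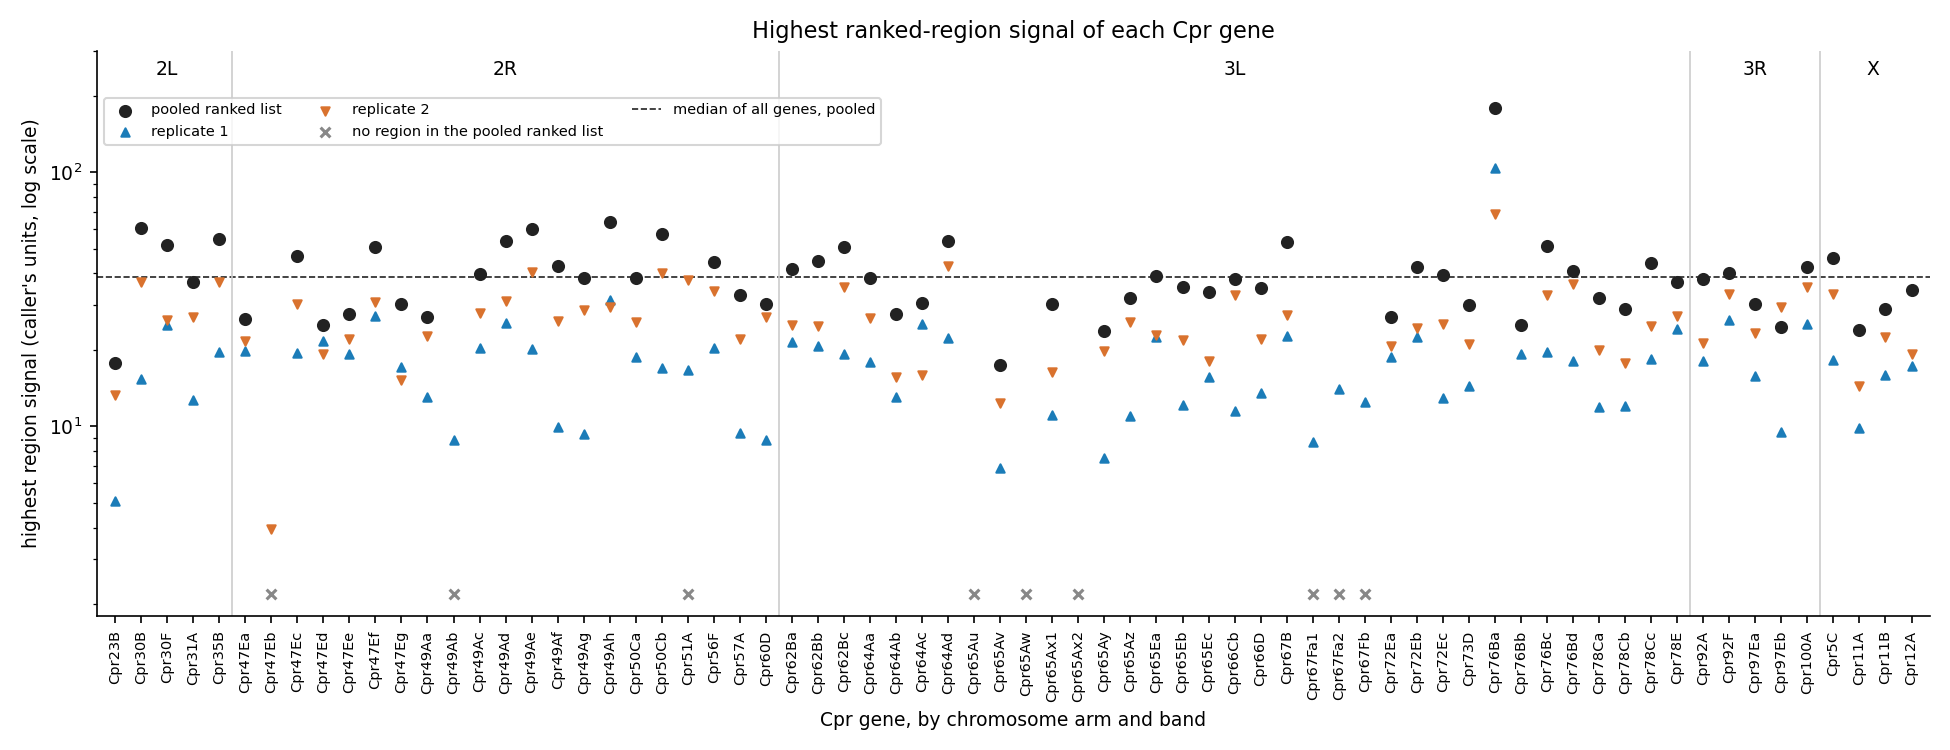
Highest signal of a ranked region assigned to each of the 70 Cpr genes (log axis, caller's units), by chromosome arm and band; circles are the pooled list, triangles the replicates, crosses genes with no pooled region, and the dashed line the median of all genes, 38.6. Cpr76Ba, at 178.1 in the pooled list, is far above the other members, which reach at most 63.9.

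Cpr76Ba (FBgn0036878) is on the minus strand at chr3L:19517552-19518332 and is one of 4 members of the Cpr76B cluster. Its peak, at chr3L:19516564-19516919, had a signal of 178.1 in the pooled list, 103.5 in replicate 1 and 68.5 in replicate 2. These values ranked 290 of 1825, 163 of 1163 and 623 of 1100 among the thresholded peaks. The replicates thus agree on its presence, but it stood higher among the peaks of replicate 1 than among those of replicate 2.

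The −log10 IDR of this peak was 3.64 in the pooled list, 5 (the cap) in replicate 1 and 2.86 in replicate 2. The peaks of the replicates shared 256 bp, which is 100% of the replicate 1 peak and 73.1% of the replicate 2 peak. Their summits were 2 bp apart.

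The pooled summit is not at the promoter. It lies 1590 bp downstream of the TSS and 810 bp beyond the annotated end of the gene, in intergenic sequence outside the cluster's span. The next gene on that side, CG9452, begins 12872 bp from the summit. Of the 8 pooled regions assigned to Cpr76Ba, the other 7 had signals of at most 34.4, and 3 of them lay within 500 bp of the TSS or in the gene body.

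**Figure D2:**
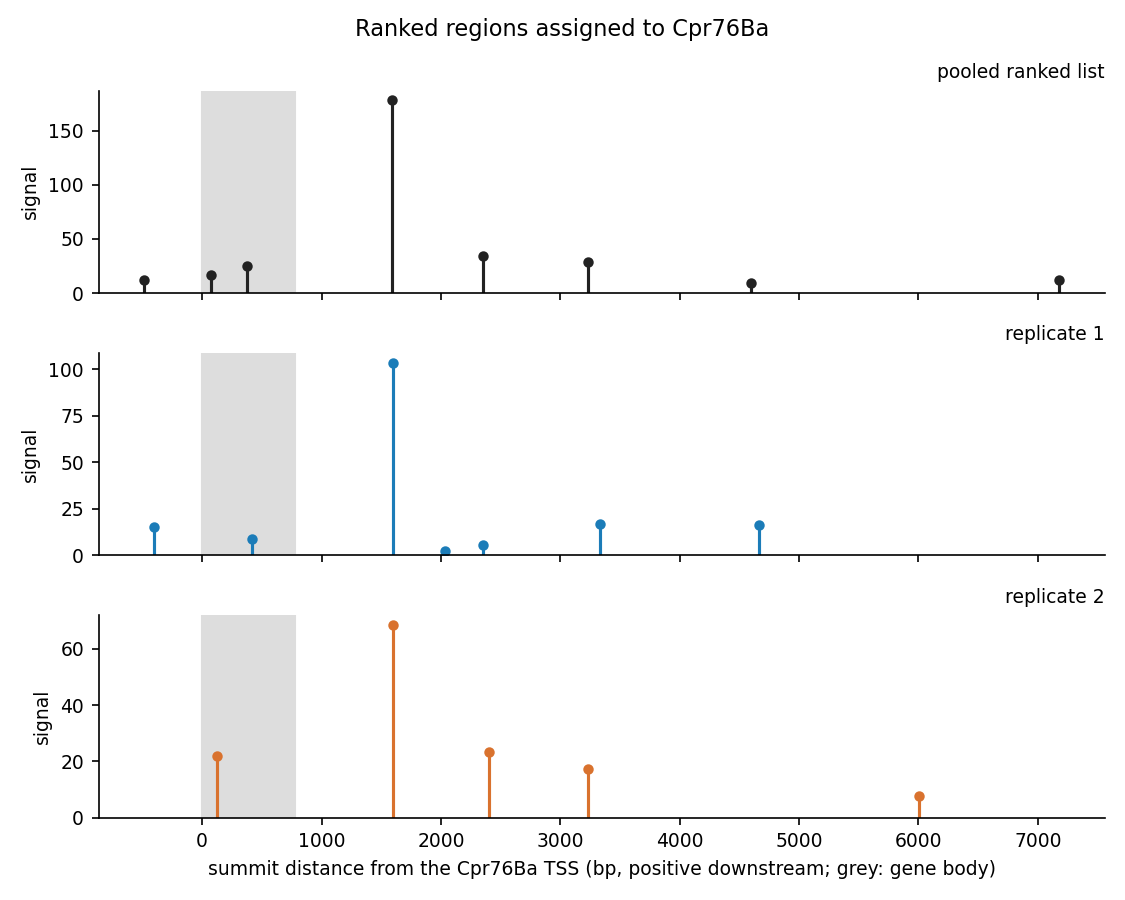
Signal of each ranked region assigned to Cpr76Ba by its summit's distance from the TSS (bp, positive downstream) in the pooled list and in each replicate, with the gene body in grey. In all 3 lists the highest region is the one past the gene's end, at 178.1, 103.5 and 68.5.

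The promoter of Cpr76Ba is shown for comparison with its peak, from RefSeq's Release 6 at chr3L:19518283-19518582 on the minus strand, 250 bases before to 50 after the TSS, with TATAAA on either strand in capitals.
Cpr76Ba promoter: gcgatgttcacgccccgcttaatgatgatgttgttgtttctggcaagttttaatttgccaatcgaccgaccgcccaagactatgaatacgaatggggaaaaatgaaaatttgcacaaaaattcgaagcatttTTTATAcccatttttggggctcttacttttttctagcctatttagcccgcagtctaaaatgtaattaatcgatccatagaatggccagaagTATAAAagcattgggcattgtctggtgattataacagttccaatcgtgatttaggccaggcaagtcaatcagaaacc
This window is 39.7% GC, holds TATAAA at 2 places and has no CAGTG site.

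Cpr49Ah, in the Cpr49A cluster on arm 2R, had its pooled peak in the promoter, 133 bp upstream of the TSS. The signal was 63.9, rank 1583 of 1825 peaks, with a −log10 IDR of 2.11. The overlapping region had a signal of 31.5 in replicate 1 (−log10 IDR 1.46) and 29.4 in replicate 2 (0.366). This peak was therefore near the threshold in the pooled list and below it in each replicate, and it was absent from the conservative list.

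Next by signal came Cpr30B, with a pooled signal of 60.3 and an IDR of 0.0373; next by IDR came Cpr47Ef, at 0.0178. At an IDR of at most 0.05, 7 of 70 members had a pooled region (10%, against 16% of genes): Cpr76Ba, Cpr49Ah, Cpr30B, Cpr49Ae, Cpr47Ef, Cpr62Bc and Cpr67B. At that cutoff replicate 1 had Cpr49Ah and Cpr76Ba (2.86% of members, against 9.04% of genes), and replicate 2 had Cpr35B and Cpr76Ba (2.86%, against 8.96%). Cpr76Ba was common to these sets. Of the 13945 genes, 787 were common to the sets of replicate 1 and replicate 2.

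Unless called highest, replicate values below are those of the replicate region that overlaps the gene's strongest pooled region. The region of Cpr30B lies in its coding sequence, 338 bp past the TSS, with an overlapping signal of 15.3 in replicate 1 and 36.9 in replicate 2. Cpr49Ae had 59.6 in the pooled list, 20.1 in replicate 1 and 40.4 in replicate 2, in its own intron (IDR 0.0246). Cpr47Ef had 50.7, 27.1 and 28, also in its own intron (IDR 0.0178). The Cpr47Ef region ranked 2457 of 104826 in replicate 1 and 9243 of 127147 in replicate 2, and so stood higher within replicate 1.

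Cpr67B had 53.3 in the pooled list, 22.7 in replicate 1 and 27.5 in replicate 2, in its own coding sequence (IDR 0.0313). Cpr62Bc had 50.7, 12 and 35.2, also in its own coding sequence. Cpr76Bc, a neighbour of Cpr76Ba, had 51.4, 19.6 and 33.0, again in its own coding sequence and 4901 bp from its TSS. These coding-sequence regions were about as strong as the strongest intergenic ones of the family apart from the Cpr76Ba peak.

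Further regions of the 15 strongest members were farther from the gene or in another gene. Cpr50Cb had 56.9 in the pooled list, 14.2 in replicate 1 and 40.0 in replicate 2, 3376 bp upstream. Cpr35B had 54.8, 13.9 and 37.1, 6522 bp upstream, with an IDR of 0.687 in the pooled list. Cpr49Ad had 53.7, 25.4 and 31.2, in the coding sequence of its neighbour Cpr49Ac. The summit of each lay outside its own promoter.

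Cpr64Ad had 53.7 in the pooled list but 5.73 in replicate 1 and 42.7 in replicate 2, in an intron of CG43367. Cpr30F had 51.5, 25 and 25.9, 1244 bp upstream. Of the 32-base words in and around Cpr30F, 12.8% occur more than once in the genome, so its values are uncertain. The remaining members of the 15 were Cpr47Ec, with 47.0, 15 and 30.2, and Cpr5C, with 46.1, no overlapping region in replicate 1 and 27.5 in replicate 2. Elsewhere near these genes replicate 1 reached 22.2 at Cpr64Ad and 18.2 at Cpr5C, above its median of 17.7 over all genes, so the pooled summit was not the place of the highest region in replicate 1. In all, 5 of these 15 summits lay in coding sequence and 3 within 500 bp of the TSS.

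The replicates' highest signals per gene had a Spearman rho of 0.421 over the 61 members with a value in both, and 0.391 without Cpr76Ba. Over all 11718 genes with both values it was 0.513. These are descriptions, since both values come with the same gene size and neighbourhood. The strongest pooled region overlapped a ranked region of both replicates for 50 of 61 members, of replicate 2 alone for 10, and of replicate 1 alone for Cpr76Bb. Of the 50, 5 had the larger value in replicate 1. The matching shares over all genes were not computed, so these overlap counts describe the members only. The highest signal per gene, at whatever place, was larger in replicate 1 for 5 of the 61 members with both values and for 17.9% of all genes. Over all genes the medians of the highest signal, 17.7 in replicate 1 and 25.3 in replicate 2, differ in the same direction. Signals are therefore not compared between replicates.

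**Figure D3:**
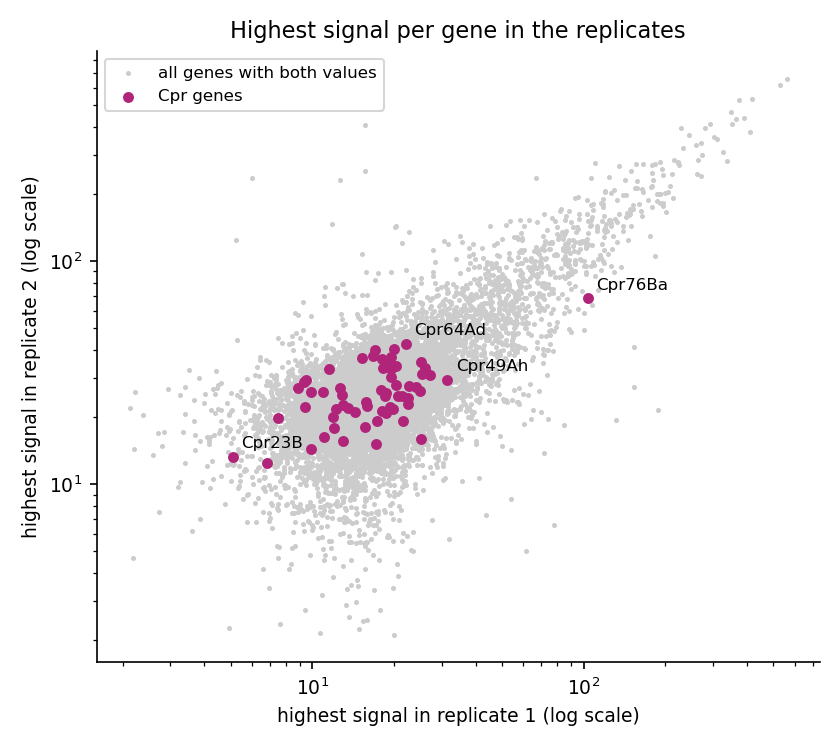
Highest ranked-region signal per gene in replicate 1 and replicate 2 (log axes, caller's units); Cpr genes are coloured points and all genes grey. The Cpr genes lie within the cloud of all genes, and Cpr76Ba, at 103.5 and 68.5, is the one member well above the rest in both replicates.

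By position, the strongest pooled region of the 61 members was at a promoter (within 500 bp of a TSS) in 22, intergenic in 17, in an intron in 10, in coding sequence away from a promoter or 5' UTR in 7, in a 3' UTR in 2, in another exon in 2 and in a 5' UTR in 1. In all, 17 summits lay in coding sequence: these 7, 9 at a promoter and that of Cpr57A, which is placed in the 5' UTR of the overlapping gene Obp57d. The same placement was not computed for the strongest regions of all genes, so these counts describe the members only. Any ranked region within 500 bp of the TSS was present for 59 of 70 members (84.3%, against 71.4% of genes). Of the members' 444 regions 22.5% lay that near, and of their territory 21.7% did. For all genes these shares were 16.5% and 16.3%. In both sets the share of regions near the TSS was thus close to the share of territory there. What lies behind the larger share of members with such a region was not tested.

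The highest signal within 500 bp of the TSS had a median of 25.5 over 59 members and 27.6 over 9950 genes. In coding sequence lay 22.3% of the members' regions and 24.2% of all ranked regions, whereas 2.47% of the thresholded pooled peaks did. Coding sequence makes up 16.4% of the members' territory and 17.1% of the main arms. The members' ranked regions thus resembled other ranked regions in this respect, and both differed in value from the thresholded peaks.

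Base composition was compared in the same way. In 201-bp windows at the summit, the strongest regions of members had a median GC content of 50.7% (range 31.3 to 65.7). All 444 regions of members had a median of 47.8%, all ranked regions 46.8% and the thresholded pooled peaks 36.8%. The Cpr76Ba peak had 37.8%, and 5 of 61 members had a strongest region at or below the peaks' median. The matching share of all genes was not computed. Coding sequence and GC content go together in these windows, and their part in the signal was not tested.

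**Figure D4:**
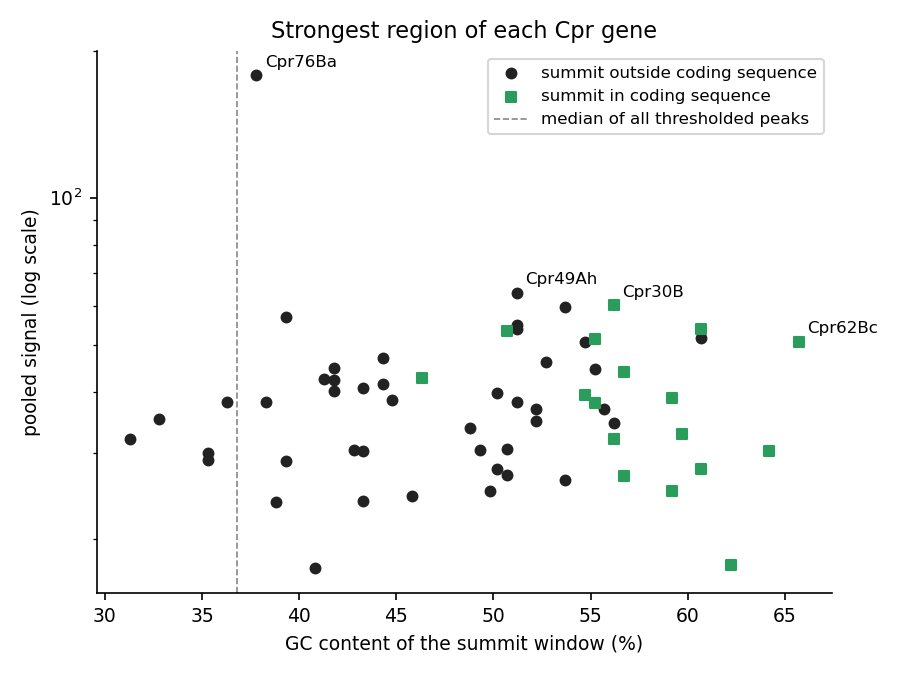
GC content of the 201-bp window (%) and pooled signal (log axis) of the strongest region of 61 Cpr genes; squares have the summit in coding sequence, and the dashed line is the median of all thresholded peaks, 36.8%. Cpr76Ba lies near that line at 37.8%, whereas Cpr49Ah, Cpr30B and Cpr62Bc lie above 50%.

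Across the 12 clusters, 257 pooled regions lay in 212.8 kb, or 12.1 per 10 kb, against 10.8 on the main arms. In replicate 1 the densities were 8.84 and 7.83 per 10 kb, and in replicate 2 they were 9.82 and 9.5. In the pooled list 9 of the 12 clusters were denser than the main arms, and Cpr65A, Cpr67F and Cpr78C were less dense. One thresholded pooled peak, that of Cpr49Ah, lay within a cluster's span.

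**Figure D5:**
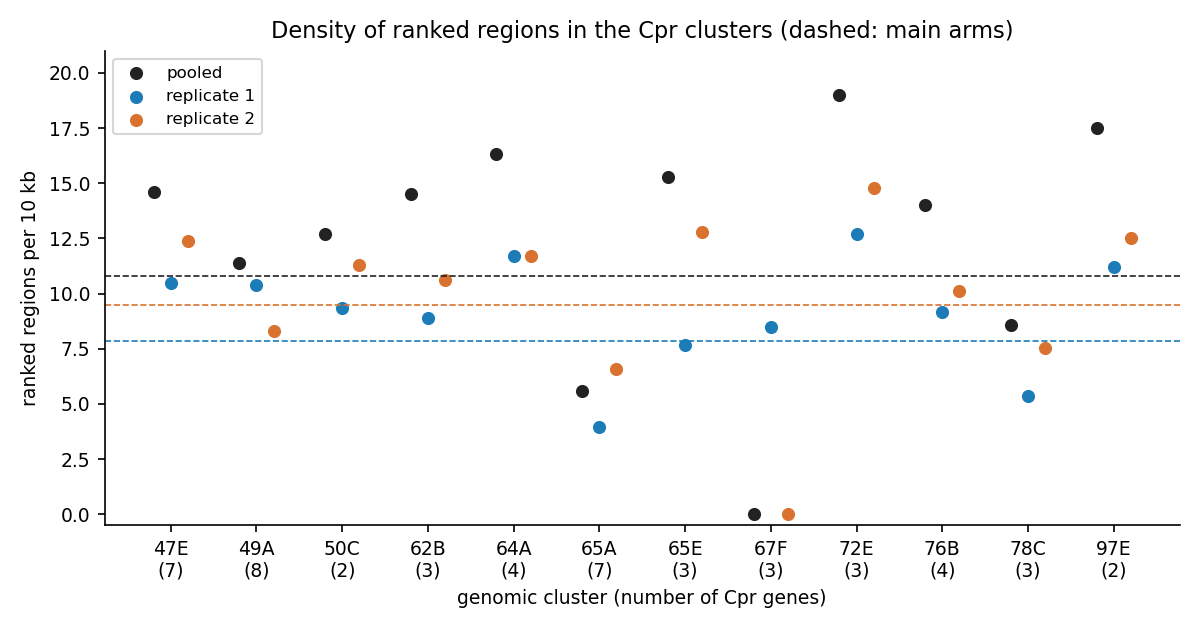
Ranked regions per 10 kb in each of the 12 clusters, with the number of Cpr genes in brackets, in the pooled list and each replicate; dashed lines give the main arms (10.8, 7.83 and 9.5). The Cpr72E cluster is highest at 19 and Cpr67F lowest at 0 in the pooled list, and Cpr65A and Cpr78C are below the main arms in all 3 lists.

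The Cpr47E cluster held 14.6 pooled regions per 10 kb. Cpr47Ef was its strongest member (50.7) and Cpr47Ed its weakest (25.1). The latter region overlapped one of 19.3 in replicate 2 and none in replicate 1. Cpr47Eb had no region in the pooled list or in replicate 1 and 3 in replicate 2, the highest at 3.96. The strengths of neighbours in this cluster therefore ranged from no pooled region to 50.7.

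The Cpr49A cluster, with 8 members, held 11.4 regions per 10 kb. Its highest signals ran from 27.0 at Cpr49Aa to 63.9 at Cpr49Ah. Cpr49Ab had no pooled region and a highest signal of 8.86 in replicate 1, the one replicate with a region, and of 24.8 in the second ranked list of the series. Cpr49Ad, Cpr49Ae and Cpr49Ah were all among the 15 strongest members.

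The Cpr62B cluster held 14.5 regions per 10 kb, and its 3 members had highest signals from 41.5 at Cpr62Ba to 50.7 at Cpr62Bc. In Cpr64A (16.3 per 10 kb) they ran from 27.8 at Cpr64Ab to 53.7 at Cpr64Ad. In Cpr65E (15.3 per 10 kb) the range was 33.7 at Cpr65Ec to 38.9 at Cpr65Ea. All members of these 3 clusters had a pooled region and a region in each replicate.

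The Cpr72E cluster had 19 regions per 10 kb in 4.74 kb, with signals from 26.9 at Cpr72Ea to 42.3 at Cpr72Eb. Cpr72Ec, a protein of the corneal lens, had 39.4 in the pooled list, 12.9 in replicate 1 and 25.2 in replicate 2. In Cpr76B (14 per 10 kb) the strongest member was Cpr76Ba and the weakest Cpr76Bb, with 25.1 in the pooled list, 19.2 in replicate 1 and no region in replicate 2. In Cpr78C (8.59 per 10 kb) the range was 28.9 at Cpr78Cb to 44.0 at Cpr78Cc. The density of this cluster was also below that of the main arms in replicate 1 (5.37) and replicate 2 (7.52).

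The pairs Cpr50C and Cpr97E held 12.7 and 17.5 regions per 10 kb. Cpr50Ca had 38.2, below Cpr50Cb (56.9), and Cpr97Ea and Cpr97Eb had 30.3 and 24.5. Among the genes outside clusters, Cpr23B had the lowest highest signal, with 17.7 in the pooled list, 5.10 in replicate 1 and 13.3 in replicate 2. Together with Cpr65Av at 17.4, it marked the lower end of the family.

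Genes outside clusters ran from Cpr23B to Cpr30B in signal, and those not yet described follow. Cpr56F had 44.5 in the pooled list, 10.8 in replicate 1 and 25.7 in replicate 2 at a region 3943 bp upstream, and Cpr100A had 42.5, 10.5 and 33.1 at one 1778 bp upstream. Cpr92F had 40.1 and 33.2 in replicate 2, with no overlapping region in replicate 1. At other places near Cpr92F and Cpr100A, replicate 1 had regions of up to 26.1 and 25.2.

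Cpr66Cb had 38.1 in the pooled list, 4.68 in replicate 1 and 32.8 in replicate 2 at its promoter. Cpr92A had 37.9, 15.8 and 19.1, in the coding sequence of Dys, the dystrophin gene. Cpr78E had 36.9, 24.2 and 21.5. Cpr31A had 36.9 and 27 in replicate 2, with no overlapping region in replicate 1.

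Cpr66D, another protein of the corneal lens, had 34.9 in the pooled list, 13.5 in replicate 1 and 22 in replicate 2, in its own intron. Cpr12A had 34.5, 17.3 and 18.8, and Cpr57A had 32.8, 9.41 and 22.1. Cpr73D had 29.9, 11.8 and 18.9 in its own intron, and 44.1% of the 32-base words in and around it were repeated in the genome, so its values are uncertain. Cpr60D had 30.4, 6.22 and 26.9 at its promoter, Cpr11B had 29, 9.70 and 16.7, and Cpr11A had 23.9, 9.89 and 12.3. None of these regions passed the threshold.

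The Cpr65A cluster, in which 11 other genes lie between 7 members, was low in every list, with 5.6 pooled regions per 10 kb, 3.95 in replicate 1 and 6.59 in replicate 2. Cpr65Az had the highest signal of its members, at 32 in the pooled list, 11.0 in replicate 1 and 25.8 in replicate 2. Cpr65Av had 17.4, 6.84 and 12.4. Cpr65Au, Cpr65Aw and Cpr65Ax2 had no region in the pooled list or in either replicate, and Cpr65Aw had one of 2.94 in the second ranked list. Around Cpr65Au the pooled list had no summit over 15935 bp, replicate 1 none over 15335 bp and replicate 2 none over 10830 bp.

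Some of this cluster occurs more than once in the genome. Of its 32-base words, 16% were repeated, against at most 3.55% in any other cluster. Cpr65Ax1 and Cpr65Ax2 encode identical proteins of 102 residues, and 69.9% and 70.8% of the words in and around them were repeated. Cpr65Ax1 had a region of 30.2 in the pooled list, 11.1 in replicate 1 and 16.3 in replicate 2, whereas Cpr65Ax2 had none. Reads from such copies cannot be placed with certainty, so the values of this pair are uncertain, and the part of repeats in the low density was not tested.

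The promoters of the pair show how close the copies are. They are taken from RefSeq's Release 6, minus strand, at chr3L:6147938-6148237 and chr3L:6150808-6151107, with TATAAA in capitals.
Cpr65Ax1 promoter: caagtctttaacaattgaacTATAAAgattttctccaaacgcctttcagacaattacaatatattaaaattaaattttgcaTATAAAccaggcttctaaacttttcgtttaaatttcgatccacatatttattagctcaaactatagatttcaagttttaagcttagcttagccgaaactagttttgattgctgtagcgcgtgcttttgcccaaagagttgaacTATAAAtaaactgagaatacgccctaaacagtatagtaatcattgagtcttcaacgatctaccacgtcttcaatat
Cpr65Ax2 promoter: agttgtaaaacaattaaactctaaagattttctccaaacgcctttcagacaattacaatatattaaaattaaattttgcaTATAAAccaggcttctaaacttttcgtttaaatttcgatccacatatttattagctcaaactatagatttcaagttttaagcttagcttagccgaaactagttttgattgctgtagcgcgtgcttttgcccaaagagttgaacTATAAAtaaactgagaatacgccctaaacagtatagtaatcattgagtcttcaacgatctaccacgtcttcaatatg
When aligned, 292 of 300 bases were identical (97.3%). Cpr65Ax1 holds TATAAA at 3 places and Cpr65Ax2 at 2.

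The Cpr67F cluster differed between the replicates. Replicate 1 held 8.5 regions per 10 kb there, with highest signals of 8.65 at Cpr67Fa1, 14.0 at Cpr67Fa2 and 12.5 at Cpr67Fb, and replicate 2 and the pooled list held none. Around Cpr67Fa1 replicate 2 had no summit over 22863 bp, and replicate 1 had 8 summits within 5000 bp of the gene's start. Cpr67Fa1 and Cpr67Fa2, whose proteins are 97.8% identical, are a further pair of close copies, although 3.55% of the cluster's 32-base words were repeated.

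Cpr51A was the last of the 9 members with no pooled region, but it was not a gene without signal. It had 16.7 in replicate 1 and 37.5 in replicate 2, and 57.0 in the second ranked list of the series. That list gave a region to 64 of 70 members. Cpr51A was thus listed in 3 of the 4 ranked lists. Around it the pooled list had no summit over 11987 bp. The second list, replicate 1 and replicate 2 had 8, 8 and 9 summits within 5000 bp of Cpr51A.

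Thresholded peaks also lay near members but nearer to other genes. Counting any pooled summit within 10000 bp of a TSS, 13 members had one, against 31.3% of all genes. Near the Cpr78C cluster were peaks of 274.9 and 180.9, which lie 70 and 36 bp from the start sites of CG11309 and CG12974. Cpr31A had a peak of 137.4 at a distance of 3232 bp, assigned to Pen, an importin. Near Cpr67B were peaks of 83.6 and 69.5 assigned to CG4022, near Cpr23B peaks of 79.7 and 7.81 assigned to Duox, and near Cpr11B a peak of 61.7 assigned to hwt. The other nearby peaks were those of Cpr76Ba and Cpr49Ah themselves.

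The median distance from a TSS to the nearest pooled summit was 27174.5 bp over members and 22065 bp over all genes.

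Motifs were sought on both strands in the 300-base promoters of all genes, independently of the regions. TTACGTAA, the Giant site, was present with no more than 1 mismatch in 4 of 70 members (5.71%, interval 2.24 to 13.8), against 12.2% of promoters, and without mismatch in 0 of 70, against 0.452%. The members' promoters had a median GC content of 45.5%, against 38% for all promoters, and its part in the A- and T-rich motif's share was not tested. The matches are shown with 10 bases on either side, from RefSeq's Release 6 on the strand of the gene, with the match in capitals. They lie at chr3L:4211627-4211654, chr3L:6158744-6158771, chr3L:16957797-16957824, chr3L:16957784-16957811 and chr3L:19520718-19520745, on the minus strand except for the last.
Cpr64Ab: aaacgggccaTTACGTCAgcaaatggaa
Cpr65Ay: ccataaacaaTGACGTAAcccctttcgg
Cpr73D first match: gacgtcgatgTTACGAAAacacattaca
Cpr73D second match: cgaaaacacaTTACATAAgtgcaaaaaa
Cpr76Bc: cgccattaatTTATGTAAagtcgaaacg
The sites begin 104, 131, 125, 112 and 217 bp before the TSS. The genes' highest pooled signals were 27.8 for Cpr64Ab, 23.8 for Cpr65Ay, 29.9 for Cpr73D and 51.4 for Cpr76Bc. None of these 4 genes had a thresholded peak, but 4 genes are too few to relate matches to peaks.

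TATAAA was the motif that members held most often: 49 of 70 promoters (70%, interval 58.5 to 79.5) had it, against 45.8% of all promoters. GAGAG was in 23 (32.9%, against 29.7%). CAGTG, which overlaps the longer ACAGTGG, was in 24 (34.3%, against 46.2%), and ACAGTGG in 0 (against 3.49%). TATCGATA, the element of housekeeping promoters bound by DREF and BEAF, was in the promoter of Cpr49Af (1.43%, against 9.36%), and AACCGGTT, the Grainyhead element, in 0 (against 0.753%). With 500 bases before to 500 after the TSS, AACCGGTT was in 4.29% of members against 1.69% of promoters, and GAGAG in 62.9% against 66.7%, so both directions turned. CAGTG (85.7% against 86.8%) and ACAGTGG (10% against 11.1%) were then at nearly the same share.

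At the summits, such a Giant match was in 23 of the members' 444 windows (5.18%), in 5.32% of all ranked windows and in 9.32% of thresholded peaks. One member region held it without mismatch, a region of Cpr50Ca with a signal of 13.3. ACAGTGG was in 2.03% of the members' windows, 2.92% of all ranked and 10.3% of thresholded peaks. CAGTG was in 30.6% of the members' windows, 35% of all ranked and 50.7% of thresholded peaks. In the strongest regions of the 15 strongest members, 0 held the Giant site, 3 held ACAGTGG (Cpr76Bc, Cpr47Ef and Cpr62Bc) and 6 held CAGTG. A match describes letters in the window and does not show binding.

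Other lists of cuticle genes held few peaks, beside 9.17% of all genes with one. A pooled peak was assigned to 0 of 28 other genes with the Rebers-Riddiford domain, 0 of 26 Tweedle genes, 0 of 12 genes of other chitin-binding proteins and 0 of 8 tanning genes. The median territories of these lists were 1894.8, 2783.8, 2082.8 and 7730 bp, against 4246.5 bp for all genes, and with so few genes a count of 0 sets little limit. Among 18 genes of chitin synthesis and turnover 1 had a peak, the chitinase gene Cht7, with 85.4 in the pooled list, 56.1 in replicate 2 and no thresholded peak in replicate 1. Of 13 genes of regulators of cuticle formation, a hand-made list chosen with earlier results of these data known, 7 had a pooled peak (53.8%) and 5 had one in each replicate's list, with pooled signals of 462.0 at Hr3, 277.6 at Hr4, 157.9 at grh and 137.5 at Eip75B. The regulators' median territory was 30662 bp, against 3363.8 bp for the Cpr genes, and the part of this difference in their share was not tested. Hr3, Hr4 and Eip75B encode ecdysone-responsive nuclear receptors, and grh encodes Grainyhead, a regulator of the epidermal barrier.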

How the data were processed

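ChIP-seq peak lists of 2 replicates of gt-eGFP embryos were analysed. The authors deposited 8 lists on dm6: per the labels and the deposited text files, peaks were called against a control library, in each replicate and over both pooled. For the aligner and the caller, a name was not given in the sources used here. Signal values were used as deposited. The deposited −log10 column holds the global IDR, capped at 5. Without read counts in the lists, the depth is unknown. Intervals reflect the counting of genes alone.

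Summits were assigned to Ensembl release 115 genes with Python 3.11.15, pandas 2.3.3 and NumPy 2.4.6. Repeats were 32-base words occurring more than once in the genome, in genes with 1000 bp on either side. Protein identity used translated annotation and Biopython 1.88, and rho SciPy 1.17.1. Assignment, clustering and motif search were tested on simulated data. The members and lists were chosen with earlier results of these data known. Named were genes with a thresholded peak, the 15 strongest members, the strongest and weakest member of each cluster of at least 3, close copies, members with no ranked region and, in other lists, the strongest genes with a peak; further names are examples chosen after their values were seen. Alternatives varied the list, the distance, the IDR cutoff, the cluster gap, the motif window and the replicates.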

Additional observations from a re-analysis of the deposited data

How the results depend on the processing

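The 2 members with a pooled peak became 1 (Cpr76Ba) in the conservative list (8.07% of all genes) and among peaks above the median signal (5.38%), 7 at an IDR of at most 0.05 (16%) and 13 when any TSS within 10000 bp counted (31.3%). They stayed 2 with at most 5000 bp (8.35% of all genes) and became 3, with Cpr35B added, at 20000 bp (9.71%). The peak added for Cpr35B lay more than 10000 bp from its TSS and is not the region 6522 bp upstream described above. With either replicate left out the count was 1 in each case (5.94% and 6.59%). Here and below, values with a replicate left out are those of the other replicate's own list, already reported above, and add no further check. The ratio of the members' median highest signal to that of all genes, 0.986 as reported, was 1.02 with at most 5000 bp and 0.953 with any TSS, and ranged from 0.992 to 1.01 with a replicate left out. The density of ranked regions in clusters was 1.11 times that of the main arms, and ranged from 1.03 to 1.13 with a replicate left out. The Giant site share of promoters, 5.71%, became 24.3% with 500 bases before to 500 after the TSS, against 32.9% of all promoters, a window that is longer by construction. The count of members with a peak in both replicates stayed at 1 (Cpr76Ba), beside 602 genes, and was 1 beside 787 genes at an IDR of at most 0.05. No paired analysis was possible because the series has 1 group. Depth, the signal's scaling and the broad age window limit what the lists can show, and with 2 replicates no spread of a single region's signal was estimated.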
